A study of Mus musculus with 12 samples.

Results

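Angiopoietins and vascular growth factors are secreted proteins that act on blood and lymph vessels, and their genes were followed in CT26 cells, a mouse colon carcinoma line, under starvation and oxaliplatin. The 8 genes listed were Angpt1, Angpt2, Angptl2, Angptl4, Vegfa, Vegfb, Vegfc and Pgf. For each gene, the brightest probe set (by the mean of 12 arrays) annotated to 1 symbol was used, and 7 of the 8 were measured in this way, out of 17097 genes in all. Angptl2 was not analysed here. The list was chosen by measured values of these data, because the signal of Angpt2 differed between the OXP and STS+OXP groups. That contrast is therefore given as a description without a test for every member.

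RNA was hybridized to Affymetrix mouse arrays, with 3 arrays in each of 4 groups. Control (CTR) cells were kept for 48 hours with glucose at 1.0 g/L and serum at 10%. Under short-term starvation (STS), the 48 hours were spent with glucose at 0.5 g/L and serum at 1%. The OXP group received oxaliplatin, a platinum drug that damages DNA, in the control medium, and the STS+OXP group received it in the starvation medium. The labels give 10 µM oxaliplatin, begun 24 hours after the start of starvation. The legends of the study that cover the array data give a higher dose, and which dose these arrays received is not settled. All 4 groups were the same cell line, without host tissue. It is not stated that replicate arrays are separate cultures, so the p-values measure the spread between these arrays, which may be technical.

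VEGF proteins signal through receptor tyrosine kinases of the vessel wall. VEGF-A, encoded by Vegfa, is the main signal for new blood vessels and binds the receptors encoded by Kdr and Flt1, while VEGF-B and placental growth factor (Pgf) bind the Flt1 receptor. VEGF-C drives the growth of lymphatic vessels through the Flt4 receptor. The angiopoietins share the endothelial receptor TIE2, encoded by Tek. Angpt1 activates TIE2 and steadies vessels, and Angpt2 often opposes it and loosens them. Angptl4 is a related protein that does not bind TIE2 and inhibits lipoprotein lipase. Tumour cells can secrete several of these factors, and low oxygen is a well-known inducer of Vegfa and Angptl4.

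The members that fell with oxaliplatin, Vegfa and Vegfb, are both in the RefSeq promoter table (GRCm38.p6), and the 250 bases before the start site are printed to show how the 2 promoters differ in base composition. Capitals mark GGGCGG, the box bound by Sp1, and GCGTG or ACGTG, the core letters of the hypoxia response element, read on both strands, so that CCGCCC and CACGC are the same motifs on the other strand. Adjoining capitals in Vegfb are 2 boxes that lie end to end.
Vegfa, chr17:46032378-46032627, minus strand: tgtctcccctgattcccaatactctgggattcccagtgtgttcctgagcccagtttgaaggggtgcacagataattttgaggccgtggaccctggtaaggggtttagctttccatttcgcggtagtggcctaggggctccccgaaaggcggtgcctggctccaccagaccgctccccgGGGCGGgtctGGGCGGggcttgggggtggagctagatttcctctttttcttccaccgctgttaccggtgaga
Vegfb, chr19:6987652-6987901, minus strand: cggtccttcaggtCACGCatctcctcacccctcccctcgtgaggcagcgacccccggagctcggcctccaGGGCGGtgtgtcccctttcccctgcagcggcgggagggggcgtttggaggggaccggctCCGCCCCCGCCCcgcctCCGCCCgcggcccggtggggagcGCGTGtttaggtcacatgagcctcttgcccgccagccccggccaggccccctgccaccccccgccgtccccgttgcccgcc
The Vegfa stretch was 59.2% G and C and the Vegfb stretch 76.4%, against a median of 52.4% over 32851 windows of this length. The Vegfa stretch held 2 GGGCGG boxes and no match to either hypoxia core, and the Vegfb stretch held 4 GGGCGG boxes and 2 GCGTG matches. Of all windows, 32.7% held GGGCGG, 28.2% GCGTG and 16.6% ACGTG. A second Vegfa start site inside the gene, at position 46025163, had 1 GGGCGG box and 1 match to each hypoxia core. Of the 2 Pgf start sites, the one at position 85177313 of chromosome 12 had 2 GGGCGG boxes and 1 GCGTG match, and the other had no match to these 3 motifs. The Vegfc stretch held 2 GGGCGG boxes, as did that of Angptl2. The letters TGATGCAA, a composite site of the stress factors CHOP and ATF, were in 0.7915% of all windows and in none of these 7. A match is a description of the letters and not a binding site, and bases further upstream were not searched. Promoter sequences of Angpt1, Angpt2 and Angptl4 were not used here.

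Signals are RMA values on the log2 scale, and a difference of 1 is a doubling or halving. A group was taken as being at background where its mean did not exceed a level set by bacterial control probe sets, whose mean over the arrays was 4.04 for CTR, 4.20 for STS, 4.22 for OXP and 3.84 for STS+OXP. This level came from 25 control sets, and some of them appear to have been spiked in. A second, lower level from 15 of these sets (Lys, Phe and Trpn), chosen after seeing the data, was 3.49, 3.50, 3.34 and 3.42 in the same order. By the first level, 5 of the 7 measured members were above background in at least 1 group (Angpt2, Angptl4, Vegfa, Vegfb and Pgf), as were 9161 of the 17097 genes. Signals of different probe sets are not compared with each other, since each binds with its own strength.

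**Figure D1:**
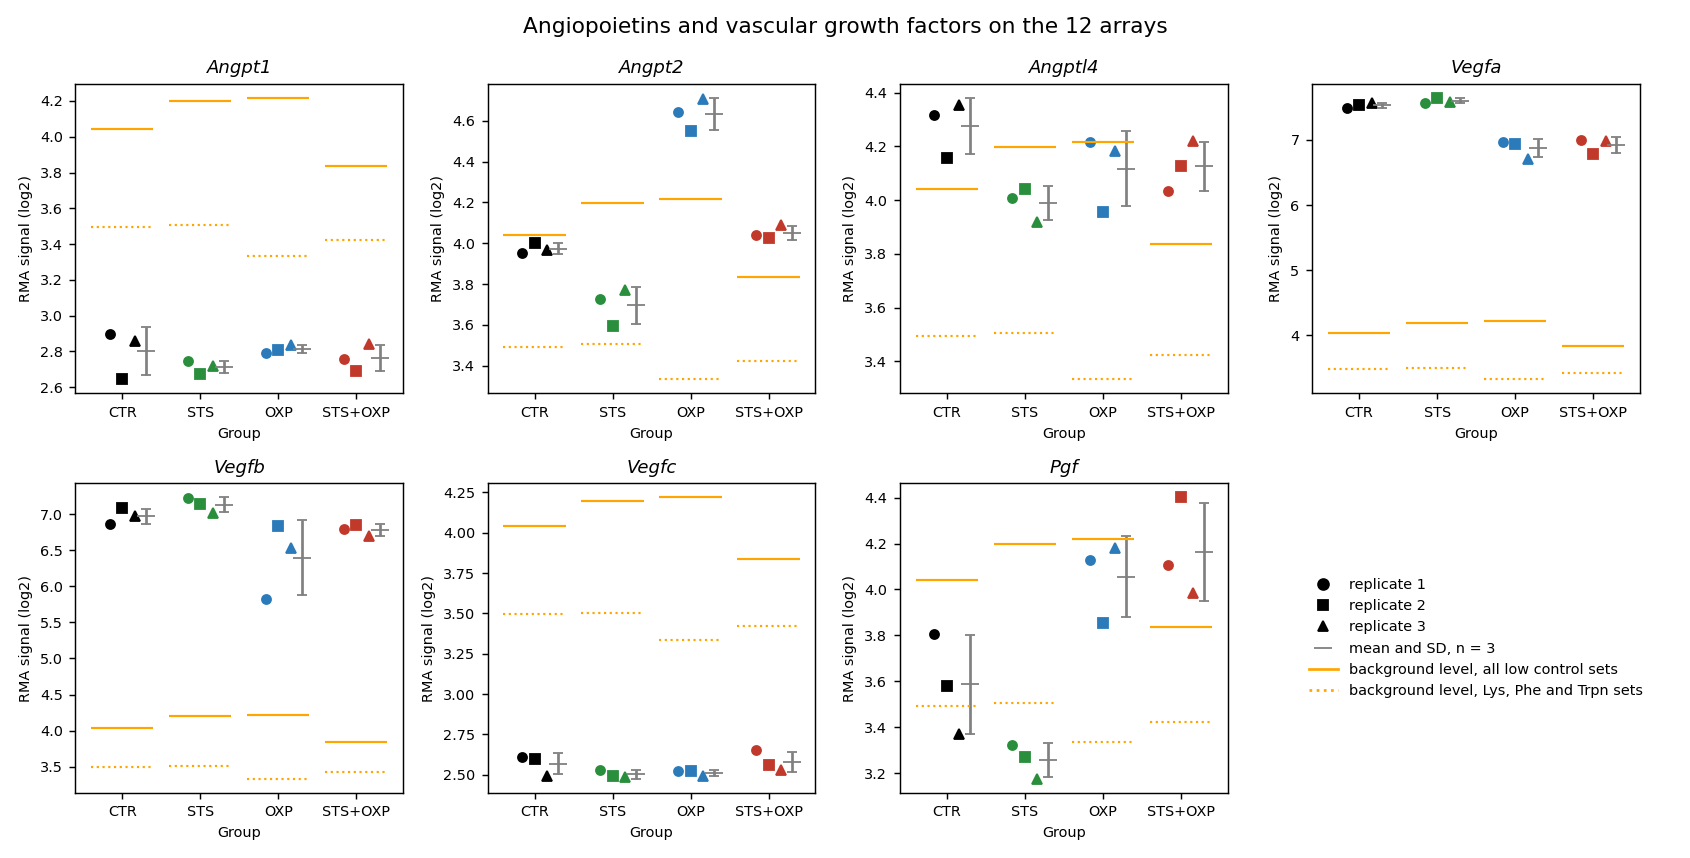
RMA signal (log2) of the 7 measured genes on each of the 12 arrays by group, with the group mean and SD (n = 3) beside the points and the background levels of the group in orange. Vegfa is lower on all 6 arrays with oxaliplatin, Angpt2 is highest on the 3 OXP arrays, and Angpt1 and Vegfc lie under both background levels in every group.

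Vessel markers were mostly at background in these cells, by the first level. Of 13 markers of endothelium, only Egfl7 was above background, in CTR and STS+OXP, and Pecam1, Cdh5, Tek, Tie1 and Kdr were at background in every group. Kdr, with group means from 3.67 to 4.01, was above the second level. The sum of these 13 log2 signals ran from 39.8 to 40.7 on the CTR arrays, 39.4 to 40.0 on STS, 39.3 to 40.8 on OXP and 39.1 to 40.0 on STS+OXP. The 3 markers of pericytes and smooth muscle that were measured were at background in all groups. Of 10 epithelial markers, Epcam and Krt20 were above background in all groups and Cdx2 in STS+OXP, whereas Cdh1, Krt8, Krt18, Krt19 and Vil1 were not. Of 7 mesenchymal markers, 6 or 7 were above background in each group, and with starvation 4 of them rose (Col1a1, Col1a2, Col3a1 and Pdgfrb) and the other 3 did not pass, with a median difference of 0.34 beside -0.03 over all genes. The sum of their log2 signals ran from 45.3 to 46.4 on the CTR arrays, 49.4 to 49.9 on STS, 47.7 to 49.0 on OXP and 48.0 to 49.1 on STS+OXP. Of 6 macrophage markers, only Cd68 was, in OXP. In RNA from a whole culture, fewer cells with a transcript and less of it per cell cannot be told apart.

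Averaged over both media, oxaliplatin was followed by higher Angpt2 and Pgf and by lower Vegfa and Vegfb. This comparison sets the mean of the OXP and STS+OXP groups against the mean of CTR and STS. Its log2 difference does not depend on that between the 2 oxaliplatin groups, but both share 1 estimate of the spread. For Angpt2 the p-value is therefore not fully independent of how the gene was chosen. With calls made at 0.05 after Benjamini-Hochberg adjustment across all genes, limma found 2 of the 7 measured members higher and 2 lower, where 18.8% of all genes were called higher and 15.2% lower. In single groups, OXP against CTR gave 1 higher and 2 lower of the 6 members tested, against 17.5% and 13.9% of all genes. STS+OXP against CTR gave 1 higher and 1 lower of 6, against 16.4% and 14.2%, and STS+OXP against STS gave 1 higher and 1 lower of 6, against 10.8% and 11.2%. Starvation alone lowered 2 of 7 (Angpt2 and Angptl4), where 9.75% of all genes were called higher and 6.74% lower. Angpt2 was left out of the counts of 6 because their arrays belong to the contrast through which it came to attention.

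**Figure D2:**
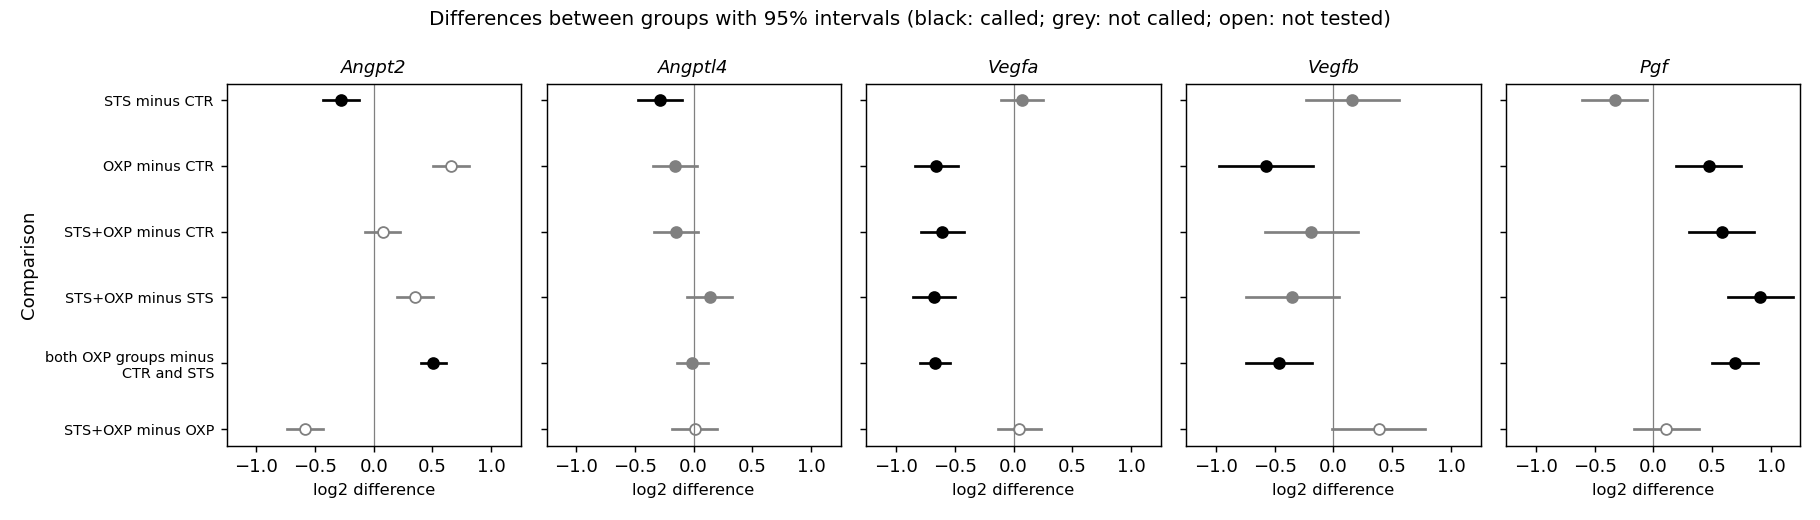
Log2 differences (points) with 95% intervals (bars) for the 5 members above background, one comparison to a line. Filled black points passed limma's test, filled grey points did not, and open points were not tested. The bars of open points are descriptions and are not to be read as a test. Vegfa lies between -0.68 and -0.60 and Pgf between 0.47 and 0.91 in each comparison of oxaliplatin with a group without it.

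Vegfa, the gene of the main blood vessel growth factor, fell with oxaliplatin in both media. It lies at chr17:46016993-46032377 (GRCm38, as for the positions that follow). Its signals were 7.49, 7.53 and 7.57 on the CTR arrays and 7.57, 7.65 and 7.58 on the STS arrays. They were 6.97, 6.94 and 6.71 in OXP and 7.0, 6.79 and 6.99 in STS+OXP. All 6 arrays with oxaliplatin lay below all 6 without it.
In control medium Vegfa fell by 0.66 (SE 0.0842, limma adjusted p = 3.26e-05), to 0.635 times the CTR signal. In starvation medium it fell by 0.68 (SE 0.0842, adjusted p = 4.46e-05), to 0.626 times the STS signal. Averaged over both media the decrease was 0.67 (SE 0.0595, adjusted p = 7.83e-07), and STS+OXP was 0.60 below CTR (adjusted p = 6.73e-05). Between STS+OXP and OXP the difference was 0.05 and the arrays overlapped.

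For starvation alone the 2 probe sets of Vegfa disagreed. The brighter one differed by 0.07 between STS and CTR (95% interval -0.11 to 0.25, limma adjusted p = 0.652), with the groups barely apart. The other, dimmer one read 5.75, 5.52 and 5.50 in CTR and 5.31, 4.97 and 4.93 in STS, with every STS array lower. On it Vegfa fell by 0.52 with starvation (SE 0.111, adjusted p = 0.00873 in a fit over all probe sets, chosen after seeing the data, where 4.27% were called lower and 6.41% higher). With oxaliplatin both probe sets went down. The second read 4.72, 4.58 and 4.79 in OXP and 4.56, 4.66 and 4.80 in STS+OXP, all below the arrays without the drug, and its mean difference over both media was -0.64 (SE 0.0786). The average of the 2 probe sets gave a decrease of 0.22 with starvation (adjusted p = 0.0419). The direction of Vegfa under starvation thus depended on the probe set, and that under oxaliplatin did not.

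**Figure D3:**
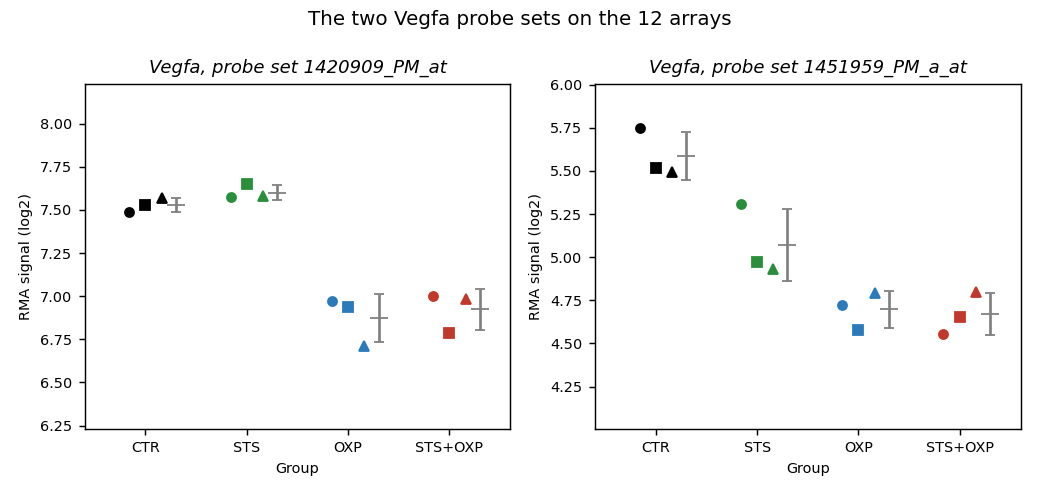
RMA signal (log2) of the Vegfa probe sets on the 12 arrays by group, with the group mean and SD (n = 3) beside the points and the same span on both vertical axes. The STS arrays lie just above CTR on the first probe set (means 7.60 and 7.53) and below it on the second (means 5.07 and 5.59), while all oxaliplatin arrays are low on both.

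Vegfb, a ligand of the Flt1 receptor linked to fatty acid uptake and to the survival of vessels, also fell with oxaliplatin, with more spread between arrays. It lies at chr19:6982472-6987651. Its signals were 6.86, 7.08 and 6.97 in CTR and 7.22, 7.15 and 7.02 in STS. They were 5.82, 6.84 and 6.53 in OXP and 6.79, 6.85 and 6.70 in STS+OXP. Every array with oxaliplatin was below every array without it, the closest pair being 6.85 and 6.86, and OXP replicate 1 stood far below the rest.
Averaged over both media, Vegfb fell by 0.46 (SE 0.13, limma adjusted p = 0.0125), and in control medium by 0.57 (SE 0.183, adjusted p = 0.0282). In starvation medium the difference was -0.35 (SE 0.183, adjusted p = 0.222), and STS+OXP against CTR gave -0.19 (adjusted p = 0.531). OXP replicate 1 is also the array on which the control set for the 3′ end of Gapdh exceeded that for the 5′ end by 3.85, against -0.12 to 0.28 on the other 11, and the part of this in the result was not tested.
Without OXP replicate 1, Vegfb was lower by 0.29 in OXP than in CTR (adjusted p = 0.0484) and by 0.32 over both media (adjusted p = 0.00199). The decrease in starvation medium, whose own arrays were unchanged, then passed the test (-0.35, adjusted p = 0.0115). The call in control medium was lost without CTR replicate 2 (adjusted p = 0.0897) or CTR replicate 3 (adjusted p = 0.07).

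Pgf, placental growth factor, rose with oxaliplatin, where Vegfa and Vegfb fell. It lies at chr12:85166637-85177785. Its signals were 3.81, 3.58 and 3.37 in CTR and 3.32, 3.27 and 3.18 in STS. They were 4.13, 3.86 and 4.18 in OXP and 4.11, 4.40 and 3.99 in STS+OXP. All arrays with oxaliplatin were above all without it, with OXP replicate 2 closest to CTR replicate 1.
Averaged over both media Pgf rose by 0.69 (SE 0.0906, limma adjusted p = 3.17e-05). It rose by 0.47 in control medium (SE 0.128, adjusted p = 0.0117) and by 0.91 in starvation medium (SE 0.128, adjusted p = 0.000134), and STS+OXP was 0.58 above CTR (adjusted p = 0.00291). These are dim signals. By the first background level only the STS+OXP group was above background, which puts the fold of STS+OXP over CTR at 1.08 or more. No fold of STS+OXP over STS can be given, since the STS+OXP mean of 4.16 did not exceed the STS background level of 4.20. By the second level only STS was at background. Starvation alone gave -0.33 (95% interval -0.61 to -0.05, adjusted p = 0.107), with all STS arrays below CTR. Without CTR replicate 3 the increase in control medium was 0.36 and no longer passed (adjusted p = 0.0647).

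Angpt2, the angiopoietin that destabilizes vessels, had its highest signals in the OXP group. It lies at chr8:18690263-18741562. The CTR arrays read 3.95, 4.001 and 3.97 and the STS arrays 3.73, 3.59 and 3.77. The OXP arrays read 4.64, 4.55 and 4.71 and the STS+OXP arrays 4.04, 4.02 and 4.09. The 4 groups did not overlap, in the order STS, CTR, STS+OXP and OXP, with CTR replicate 2 (4.001) and STS+OXP replicate 2 (4.02) the closest arrays of different groups. The gap between STS+OXP and OXP is the contrast through which the gene was chosen.
The 2 comparisons that do not rest on the difference between the oxaliplatin groups were tested. They share its estimate of the spread between arrays, so their p-values are not fully independent of the choice of Angpt2. Averaged over both media Angpt2 rose with oxaliplatin by 0.51 (SE 0.0497, limma adjusted p = 1.94e-06). As CTR and STS were at background by the first level, this is given as at least 1.14-fold. Starvation alone lowered it by 0.28 (SE 0.0703, adjusted p = 0.0151), where both groups were at background by the first level and above background by the second. The decrease did not pass without STS replicate 2 (0.23, adjusted p = 0.0762) or with the average of the 2 Angpt2 probe sets (0.15, adjusted p = 0.0818).

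The remaining differences of Angpt2 are descriptions, since they use the arrays of the contrast that chose it. OXP was 0.66 above CTR, or at least 1.45-fold. STS+OXP was 0.08 above CTR and 0.35 above STS on the measured values, and no fold is given for either, since CTR and STS were at background by the first level and the bound, taken on each array from the higher of that level and the signal, was under 1 for both. STS+OXP was 0.58 below OXP, at 0.667 times its signal. The same contrast gave 0.05 for Vegfa, 0.38 for Vegfb, 0.11 for Pgf and 0.01 for Angptl4, and for these 4 genes the arrays of the 2 groups overlapped. Over all genes, OXP replicate 2 lay nearer to the STS+OXP arrays (mean root mean square difference 0.173) than to the other OXP arrays (0.345 and 0.251). It had the lowest Angpt2 of its group and stood above all STS+OXP arrays, a separation that the choice of the gene favours. A second Angpt2 probe set was at background throughout (2.50 to 2.71), and on it the mean difference between oxaliplatin and no oxaliplatin was -0.09 (SE 0.0452).

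Angptl4, the inhibitor of lipoprotein lipase, was lower under starvation by a small margin. It lies at chr17:33774900-33781575. Its signals were 4.32, 4.16 and 4.36 in CTR and 4.01, 4.04 and 3.92 in STS. They were 4.22, 3.96 and 4.18 in OXP and 4.04, 4.13 and 4.22 in STS+OXP. The CTR and STS arrays did not overlap, and the OXP and STS+OXP arrays spanned much of the range between them.
Starvation lowered Angptl4 by 0.29 (SE 0.0876, limma adjusted p = 0.04), which is at least 1.05-fold because STS was at background by the first level. The call was lost without any 1 of CTR replicates 1 and 3, the STS arrays and STS+OXP replicate 2 (adjusted p from 0.0534 to 0.153). With oxaliplatin the average difference was -0.01 (95% interval -0.14 to 0.12, adjusted p = 0.926). The probe set used can also bind related transcripts by its name (_s_at). Its other, specific probe set was at background in every group, and on it the decrease with starvation was 0.14 and did not pass (adjusted p = 0.203).

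Angpt1, the activating ligand of TIE2, and Vegfc, the lymphatic growth factor, gave no signal above background in any group by either level. They lie at chr15:42424667-42676977 and chr8:54077532-54186454. Group means of Angpt1 ran from 2.71 to 2.81 and those of Vegfc from 2.50 to 2.58. No difference of either passed limma's test, with adjusted p from 0.475 upward in the comparisons tested, and at such signals a change in the transcript may not be visible.

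For the counts in this and the following lists, 9.75% of all genes were called higher and 6.74% lower with starvation. With oxaliplatin, taken over both media where none is named, 18.8% were called higher and 15.2% lower. Among 6 other ligands of both families that were measured, 2 were lower with starvation, and 1 was higher and 1 lower with oxaliplatin. Their median difference was -0.11 with starvation and 0.05 with oxaliplatin, beside -0.03 and 0.01 over all genes. Vegfd, a lymphatic growth factor related to Vegfc, read 5.38, 5.42 and 5.43 in CTR and 5.69, 5.74 and 5.69 in STS. It read 7.58, 6.83 and 7.33 in OXP and 6.82, 6.80 and 6.65 in STS+OXP. It rose by 1.45 with oxaliplatin over both media (SE 0.0975, limma adjusted p = 4.65e-08), and all 6 arrays with the drug were above the others.
Angptl6, a secreted relative of Angptl4, read 7.06, 6.73 and 6.38 in CTR and between 4.17 and 4.81 on the 9 other arrays. It fell by 2.42 with starvation (SE 0.147, adjusted p = 1.31e-07) and by 0.87 averaged over both media with oxaliplatin (SE 0.104, adjusted p = 1.25e-05). The signs were opposite in the 2 media, as Angptl6 was 2.19 lower in OXP than in CTR (adjusted p = 7.45e-08) and 0.44 higher in STS+OXP than in STS (adjusted p = 0.0477). Angptl8 was lower with starvation by 0.27 at background signals (adjusted p = 0.0393), a call lost without any 1 of the CTR arrays, STS replicates 2 and 3 and STS+OXP replicates 1 and 3 (adjusted p from 0.0522 to 0.187).

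Of 12 receptors and co-receptors of these ligands, 5 were above background. Of the 12, starvation raised 1, and oxaliplatin was followed by 2 higher and 2 lower, where 18.8% of all genes were called higher and 15.2% lower. The list median was 0.02 with starvation and 0.00 with oxaliplatin, beside -0.03 and 0.01 over all genes. The co-receptor Nrp1, which binds VEGF-A and semaphorins, read 4.99, 5.78 and 5.28 in CTR and 7.69, 7.53 and 7.79 in STS, an increase of 2.32 (SE 0.157, limma adjusted p = 3.28e-07). The part of the mesenchymal markers, which were also higher in STS, in this and the other increases with starvation was not tested. With oxaliplatin Nrp1 was 1.61 higher in OXP than in CTR (adjusted p = 2.44e-06) and 0.82 lower in STS+OXP than in STS (adjusted p = 0.00163).
Nrp2, the co-receptor that also binds VEGF-C, fell by 0.49 over both media (SE 0.0612, adjusted p = 1.97e-05), and the integrin subunit Itgb1 by 0.34 (adjusted p = 0.000879). Itgb1 passed in control medium (-0.45, adjusted p = 0.00191) and not in starvation medium (-0.24, adjusted p = 0.0923). Among the signalling receptors, Flt1 was above background in all groups with means of 4.34, 4.47, 4.39 and 4.48, and its average difference with oxaliplatin was 0.03 (adjusted p = 0.802). Kdr, Flt4, Tek and Tie1 were at background in every group by the first level.

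**Figure D4:**
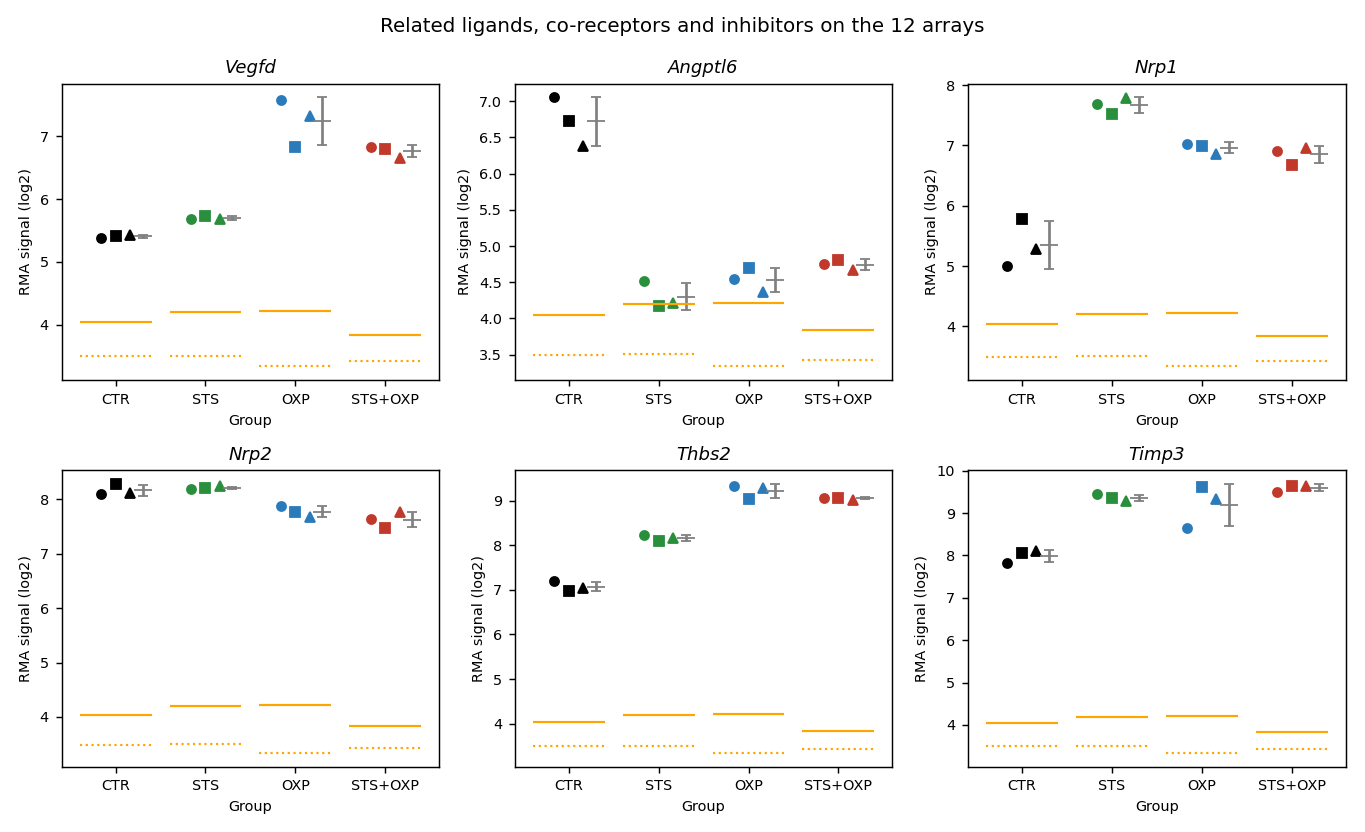
RMA signal (log2) of 6 related genes on the 12 arrays by group, with the group mean and SD (n = 3) beside the points and the background levels in orange. Angptl6 is high only on the CTR arrays, Nrp1 is lowest there, and Vegfd and Thbs2 are highest on the oxaliplatin arrays.

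Of 10 measured proteases and factors that release or process the ligands, starvation raised 1 and oxaliplatin was followed by 1 higher and 2 lower. Cathepsin D (Ctsd), a lysosomal protease, rose by 0.46 with starvation (limma adjusted p = 0.00128) and by 1.31 with oxaliplatin (adjusted p = 5.46e-10). Mmp9 and Ccbe1 were lower by 0.23 each at background signals, and the call of Ccbe1 was lost without any 1 of 9 arrays, with CTR replicate 3, STS replicate 2 and OXP replicate 1 the exceptions (adjusted p from 0.0524 to 0.105). Of 21 measured regulators of the ligand genes, 1 rose and 2 fell with starvation, and 2 rose and 6 fell with oxaliplatin. Their list median was -0.04 and -0.09, beside -0.03 and 0.01 over all genes.
Egln3, an oxygen sensor and itself a hypoxia target, fell by 1.11 with starvation (adjusted p = 0.000155, at least 1.88-fold) and by 0.69 with oxaliplatin (adjusted p = 0.000109), and only CTR was above background. Atf4, a stress transcription factor that can induce Vegfa, fell by 0.43 with starvation (adjusted p = 0.0349) and by 0.67 with oxaliplatin (adjusted p = 3.94e-05). The Atf4 call under starvation was lost without any 1 of CTR replicates 1 and 3, the STS arrays and STS+OXP replicate 3 (adjusted p from 0.0508 to 0.13). Elavl1, whose product stabilizes Vegfa transcripts, fell by 0.82 with oxaliplatin (adjusted p = 0.000196), and Zfp36l1, whose product destabilizes them, rose by 0.79 with starvation (adjusted p = 0.00192) and by 0.57 with oxaliplatin (adjusted p = 0.000532). Sp1, named here after its values were seen because its boxes are marked in the promoters, rose by 0.29 with oxaliplatin (adjusted p = 0.00046). Hif1a, named in the same way because hypoxia cores are marked there, fell by 0.23 over both media (adjusted p = 0.0104). It passed in starvation medium (-0.30, adjusted p = 0.0307) and not in control medium (-0.17, adjusted p = 0.189). The changes of Egln3, Atf4 and Zfp36l1 with oxaliplatin passed limma's test in control medium (-1.04, -1.04 and 0.94). In starvation medium they did not (-0.35, -0.30 and 0.20, adjusted p from 0.119 to 0.401), whereas Elavl1 and Sp1 passed in both media.

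Of 13 measured lipases and PPAR targets, a group that includes genes induced together with Angptl4 by PPAR factors, 1 rose and 3 fell with starvation, and 7 rose and 3 fell with oxaliplatin. The list median was -0.10 and 0.20, beside -0.03 and 0.01 over all genes. With oxaliplatin the lipid droplet gene Plin2 rose by 1.22 (limma adjusted p = 1.26e-08), the carnitine carrier Slc25a20 by 1.11 (adjusted p = 5.34e-08) and the fatty acid oxidation gene Ech1 by 0.81 (adjusted p = 1.42e-06). The 3 that fell, listed after their values were seen, were Hilpda (-0.57), Lipg (-0.38) and Acadl (-0.22). Hilpda passed in control medium only (-1.08, adjusted p = 5.06e-07). Lipg and Acadl passed in starvation medium only (-0.79 and -0.51, adjusted p = 0.000496 and 0.00203). With starvation the hypoxia-inducible lipid droplet gene Hilpda fell by 1.01 (adjusted p = 3.73e-06) and Plin2 by 0.52 (adjusted p = 0.00296), while the endothelial-type lipase Lipg rose by 1.00 (adjusted p = 0.000135).

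Of 25 other angiogenic factors measured, 4 rose and 1 fell with starvation, and 4 rose and 2 fell with oxaliplatin. Ccn1, a matrix protein that engages integrins, rose by 1.77 with starvation (limma adjusted p = 5.01e-05) and by 1.40 with oxaliplatin (adjusted p = 3.39e-06). With oxaliplatin the increase was 2.05 in control medium and 0.76 in starvation medium (adjusted p = 3.33e-06 and 0.0168). The Ccn1 probe set is not a specific one by its name (_x_at). Esm1, a proteoglycan of activated vessels, rose by 0.86 with starvation (adjusted p = 0.0199) and fell by 0.87 with oxaliplatin over both media (adjusted p = 0.000615). The difference with oxaliplatin was -1.54 in starvation medium (adjusted p = 0.000208) and did not pass in control medium (-0.21, adjusted p = 0.569). The increase of Esm1 with starvation did not pass without CTR replicate 1 (0.54), STS replicate 2 or STS replicate 3 (adjusted p from 0.0677 to 0.0817). The chemokine Cxcl1 rose by 0.65 with oxaliplatin (adjusted p = 0.000281, at least 1.08-fold), and Fgf1 was 0.63 higher with starvation at background signals (adjusted p = 0.00257).
Of 13 measured inhibitors of angiogenesis, 5 rose with starvation and the other 8 did not pass, and 6 rose and 2 fell with oxaliplatin. The list median was 0.27 with starvation and 0.13 with oxaliplatin, beside -0.03 and 0.01 over all genes. Thrombospondin 2 (Thbs2) rose by 1.09 with starvation (adjusted p = 1.57e-06) and by 1.52 with oxaliplatin (adjusted p = 3.15e-10). Timp3, an inhibitor of metalloproteinases that also blocks the Kdr receptor, rose by 1.37 with starvation (adjusted p = 0.000124). The interferon-induced chemokine Cxcl10 fell by 1.61 with oxaliplatin (adjusted p = 3.03e-08). Timp2 rose by 0.87 (adjusted p = 6.14e-09), though the average of its probe sets gave 0.37 (adjusted p = 0.152). Adamts1 rose by 0.75 with starvation (adjusted p = 0.0479), a call lost without any 1 array of CTR, STS or STS+OXP (adjusted p from 0.0643 to 0.136).

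For each of the 5 members above background, the genes with the most similar pattern over the 12 arrays were sought among 8881 genes above background. The arrays form 4 groups, so the correlation reflects group means as well as single arrays, and it is given without a test. For Vegfb, OXP replicate 1 (5.82) stood far below the rest and so counts heavily in its correlations. That array also had the large Gapdh difference (3.85), and its part in the matches of Vegfb was not tested. For Angpt2 they were Mettl21a (Pearson r = 0.955), Tmem147 (0.945) and Ulk2 (0.943). Mettl21a had group means of 5.38, 4.93, 6.14 and 5.55 in CTR, STS, OXP and STS+OXP, the same order as Angpt2. Genes picked by correlation share the pattern of their member through that choice. For Vegfa they were Hmgn5 (0.987), Ckap2l (0.986) and Psip1 (0.985), for Vegfb Txndc5, Calm3 and Vasp (each 0.971), and for Pgf Use1 (0.970), Mrpl52 (0.964) and Tmem141 (0.964). For Angptl4 they were Miga2 (0.909), Arfip2 (0.902) and Mafk (0.878). Hmgn5, a chromatin protein, was lower in both oxaliplatin groups, as Vegfa was, with means of 7.05, 7.26, 5.37 and 5.41 in the same order of groups.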

How the data were processed

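RNA of CT26 cells was labelled for Affymetrix arrays, and the authors deposited log2 signals that they had computed with RMA (R 3.02, per the submitters' notes). RMA adjusts for background, gives all arrays one distribution and summarises each probe set. The values were used as deposited, without a filter on dim probe sets. Of 45141 probe sets, 28898 had 1 gene symbol. Arrays give no read depth, and the number of arrays limits the precision. Groups were taken from the sample labels.

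limma 3.58.1 in R 4.3.3 was fitted to 4 group means over 12 arrays (8 residual degrees of freedom, prior 5.05). All tests were two-sided, with p-values adjusted by Benjamini-Hochberg across the 17097 genes and calls at 0.05. The code was tested on simulated data. Where 1 group was at background, the fold is a bound from that level. The named genes were the members, up to 3 called genes with the largest difference per list and comparison, and the 3 most alike genes per member. The members and lists were chosen with earlier results of these data known. The alternatives tried are given with their effects in the closing section. Gene positions and promoters are those of RefSeq for GRCm38.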

Additional observations from a re-analysis of the deposited data

Results flagged for a closer look

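The differences of Angptl4 with oxaliplatin had opposite signs in the 2 media, though the arrays overlapped in both comparisons. All 3 OXP arrays lay below the CTR mean of 4.28, and all 3 STS+OXP arrays lay above the STS mean of 3.99, so that the log2 difference between STS+OXP and STS exceeded that between OXP and CTR by 0.29. This difference of differences was not tested, since it uses the contrast between the 2 oxaliplatin groups. Neither difference passed limma's test on its own (-0.16, adjusted p = 0.215 in control medium and 0.14, adjusted p = 0.335 in starvation medium), and the OXP and STS groups were at background.

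Opposite signs were also seen in related genes, and for these the difference was not tested either. For Angptl6, the log2 difference between STS+OXP and STS exceeded that between OXP and CTR by 2.63, all OXP arrays lying below the CTR mean and all STS+OXP arrays above the STS mean. For Nrp1 the value was -2.425, with the OXP arrays above the CTR mean and the STS+OXP arrays below the STS mean. Fgf1 lay in the same way (-0.48), but it was at background in all groups and neither of its differences passed limma's test (0.22, adjusted p = 0.219 in control medium and -0.27, adjusted p = 0.151 in starvation medium).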

How the results depend on the processing

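The settings tried were the replicate block, array quality weights, median centring, loess between arrays, averaged probe sets, specific probe sets, a restriction to genes above the median, trended and robust eBayes, a fit to the compared arrays alone, the methods' unpaired test with unequal variances, each array left out in turn and OXP replicates 1 and 2 left out together. After seeing the data, a fit of each probe set on its own and a second choice of background controls were added. Of the member values under these settings, 567 kept direction and side of the threshold, 23 lost a call, 5 gained one, 7 reversed, and 6 without a test moved by more than the spread between replicates. The 4 members called for oxaliplatin over both media stayed 4 under every array left out.

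The 2 members called for starvation became 1 with specific probe sets, with trend and robust, with the replicate block and with each probe set on its own, 0 with unequal variances (2 of 7 at an unadjusted p under 0.05), and 0 to 2 with 1 array left out (0 without STS replicate 2). The 3 called for OXP against CTR became 0 with unequal variances (2 of 6 at an unadjusted p under 0.05) and 1 to 3 with 1 array left out, 1 without CTR replicate 3. The 2 called for STS+OXP against CTR and the 2 against STS each became 1 among genes above the median signal, where only 3 members were tested, and 1 with unequal variances. The same-numbered arrays did not deviate together more than others (correlation -0.199 to 0.102 over 18 pairs, and -0.192 to 0.254 over 36 pairs of different number). They were treated as unpaired, and whether they share a culture or day was not tested. With the replicate block, Angptl4 under starvation had an adjusted p of 0.051.

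The average of all probe sets turned Vegfa under starvation to -0.2233 and Angpt2 in STS+OXP against CTR to -0.008082, and it brought Angpt2 in STS+OXP against OXP to -0.2848, the second Angpt2 probe set being at background. Without OXP replicates 1 and 2 that value was -0.6581. Averaging also took the call of Angpt2 under starvation (-0.1495, adjusted p = 0.0818), while the turned value of Vegfa passed (adjusted p = 0.0419). The average difference of Angptl4 with oxaliplatin, near 0, ran from -0.04069 to 0.02953 with 1 array left out and was 0.02119 without OXP replicates 1 and 2. With only the arrays compared, Vegfb in OXP lost its call (adjusted p = 0.114), and it gained one in STS+OXP against STS (adjusted p = 0.00371), as did Pgf under starvation (adjusted p = 0.0406). Atf4, Adamts1 and Angptl8 under starvation, Esm1 under starvation and Ccbe1 with oxaliplatin lost their calls under 1 or more arrays left out. Nrp1 with oxaliplatin was 0.1065 with the average of its probe sets (adjusted p = 0.36). Except where stated, the cause was not tested. Signals near background limit what can be seen for Angpt1, Vegfc, Pgf, Angptl4 and Angpt2, whose CTR and STS groups were both at background by the first level.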
